A study of Mus musculus with 6 samples.

Results

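The prelimbic cortex of saline-treated mice was described here from 3 RNA sequencing libraries, 1 for each of saline mice 1, 6 and 10, among the 6 libraries of the series. The other 3 libraries came from ketamine-treated mice and entered no value below. Genes were kept where the mean normalized count of the 3 saline libraries was at least 10, which retained 16035 of the 37620 genes listed. All 3 mice were C57Bl/6 males aged 9 weeks that received the saline vehicle intraperitoneally once a day for 5 days, and the prelimbic tissue was dissected 2 days after the last injection. The labels name no transgene or mutation, and each library came from the tissue of 1 mouse. Throughout, a normalized count is the read count of a gene divided by a factor for the depth of its library, the values of 1 gene are given in the order of mice 1, 6 and 10, and means carry the SD over the 3 mice.

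The prelimbic cortex is a medial prefrontal area of the rodent brain. Its main cells are glutamatergic pyramidal neurons arranged in layers, with a smaller population of GABAergic interneurons that express parvalbumin, somatostatin or vasoactive intestinal peptide, and glia. The area receives dopamine, serotonin, noradrenaline and acetylcholine from neurons whose cell bodies lie in the midbrain, brainstem and basal forebrain. Cortical cells make many of the receptors for these transmitters, whereas the enzymes and transporters that make and reload the monoamines are made mostly elsewhere.

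Recovered read counts were 32643726, 31056058 and 26273436 in mice 1, 6 and 10, and between 20598 and 20951 genes had at least 1 read in a library. The library of saline mouse 10 stood apart from the other 2. All 9 oligodendrocyte markers kept were at least 2-fold higher in it than in both others, as were 6 of 7 midbrain monoamine neuron markers, 6 of 7 hippocampal markers, 6 of 8 choroid plexus markers and 4 of 4 ependymal markers, where 4.17% of all genes kept were. Some of these markers passed the filter through mouse 10 alone, so the counts describe that library and support nothing further. Slc6a3, the plasma membrane dopamine transporter, had 4.79, 2.90 and 1821 normalized counts. Levels below are given for every mouse or as the mean ± SD of the 3, and mouse 10 enters each of those means. The share of other brain regions or cell types in that library was not tested. The male label was met in each library, with Ddx3y, a Y-linked RNA helicase gene, at 2135, 1886 and 2253 normalized counts and Xist, the RNA that silences an X chromosome in female cells, at 0.960, 1.93 and 0.

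The tissue label was checked against markers of cortical neurons. Slc17a7, the vesicular glutamate transporter of cortical pyramidal neurons, had 49417, 48207 and 32973 normalized counts, and Camk2a, a calcium-dependent kinase abundant in those cells, had 121654, 111530 and 95628. All 7 excitatory neuron markers and all 7 upper-layer markers were kept. Of 8 cerebellar markers 6 were kept, among them Calb1, which cortical interneurons and upper layers also make, at 6202, 5853 and 2717 normalized counts. The other 2, Pcp2 and Gabra6, were at or near 0, with 0, 0.970 and 0 and 0, 0 and 1.10 normalized counts. Fev, a serotonin neuron gene of the midbrain monoamine list, was near 0 as well, at 0, 0 and 2.20. Of the 9 genes in that list 7 were kept, among them Tph2, so Fev does not stand for the list. Of 14 striatal neuron markers 13 were kept, and they ranged from Penk, proenkephalin, at 735 ± 152 per kilobase to Gpr6 at 17.8 ± 2.02, with Drd1 at 60.2 ± 7.43. In whole tissue of this kind, fewer cells of a type and less RNA per cell cannot be told apart.

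RNA of the mitochondrial genome led the transcriptome. Of the 20 genes with the highest mean normalized counts, the first 9 were encoded there, and mt-Co1, a catalytic subunit of cytochrome c oxidase, was first in each of the 3 libraries with 622435, 628539 and 694976 normalized counts (648650 ± 40235, mean ± SD, n = 3). The mitochondrial genome took 7.21%, 7.79% and 8.85% of all normalized counts. The 10 most abundant genes took 7.09%, 7.59% and 8.71%, and leaving out mitochondrial genes brought the mean share of the 10 leading genes from 7.80% to 3.09%. Below the leaders the counts were spread widely: 906, 925 and 961 genes were needed to reach 50% of the counts, and 5788, 5906 and 6150 to reach 90%. By mean normalized count, 3720 genes lay from 10 to under 100, 6348 from 100 to under 1000, 5516 from 1000 to under 10000, and 451 at 10000 or above. Protein-coding genes made up 14696 of the genes kept, beside 565 lincRNAs, 358 processed transcripts and 275 pseudogenes.

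**Figure D1:**
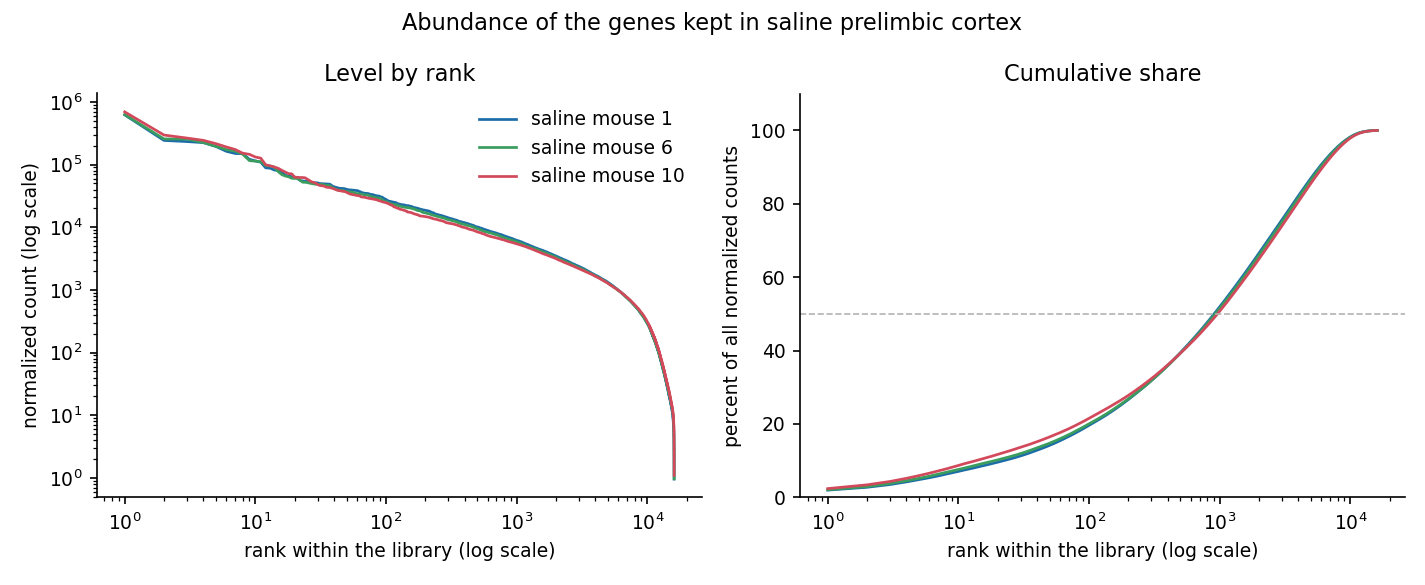
Normalized count (left, log scale) and cumulative percent of all normalized counts (right) against the rank of a gene within its library (log scale), for the genes kept, with 1 line for each saline mouse. The 3 lines nearly overlap, and they cross 50% of the counts (dashed) at 906, 925 and 961 genes.

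Among the mitochondrial mRNAs, 12 of 13 were kept, and they differed strongly in level. Per kilobase of exon, mt-Co1 was at 419838 ± 26042 normalized counts and mt-Co2 at 388088 ± 40358 (mean ± SD, n = 3), whereas mt-Nd6, the one listed mRNA of the other strand, was at 5450.4 ± 1265. The per-kilobase ratio of mt-Nd5 to mt-Nd6, both subunits of complex I, was 19.5, 12 and 14.7. mt-Nd4l was the member under the filter, with 2.87, 0 and 2.20 normalized counts, although it shares a transcript with mt-Nd4 at 194671, 195963 and 215719. mt-Nd4l and mt-Nd4 overlap, as do mt-Atp8 and mt-Atp6, so the counts of these genes depend on how reads in an overlap were assigned and are uncertain. mt-Nd5 varied least among the mitochondrial mRNAs, with a coefficient of variation (CV, the SD over the mean) of 1.09%.

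Several of the most abundant nuclear genes act in calcium signalling at synapses. Camk2a led the nuclear genes by normalized counts (109604 ± 13119.8), and Meg3, a maternally expressed long noncoding RNA, was also among the highest (90152 ± 24324). Counts rise with the length of a gene, so levels of different genes are compared below per kilobase of exon. On that scale Fth1, the ferritin heavy chain, headed the nuclear genes at 54219.6 ± 24288, and its values of 40814, 39589 and 82256 per kilobase put mouse 10 far above the other mice. Nrgn, a calmodulin-binding protein of dendritic spines, followed at 37083 ± 3854 per kilobase, with values of 38002, 40394 and 32853 per kilobase, and it was above Fth1 in mouse 6 alone. Cpe, which trims neuropeptide precursors, stood at 33910.5 ± 4177 per kilobase. Calm2 and Calm3 encode the same calmodulin protein and stood at 33646 ± 4459 and 19204 ± 1381 per kilobase. Calm2 had 36700.1, 35709 and 28528 per kilobase and Calm3 had 20538, 19293 and 17779.7, so Calm2 was above Calm3 in each mouse and their ranges did not overlap.

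Vesicle release genes were abundant as a group. Of 18 listed all were kept, and their median stood at the 98.6th percentile of the genes kept, per kilobase. Snap25, a membrane SNARE, led at 11209 ± 1926 per kilobase, ahead of Syp, the vesicle protein synaptophysin, at 8756 ± 1172. Vamp1, another vesicle SNARE, was lowest at 482 ± 188 per kilobase, and its normalized counts of 3622, 2957 and 6074 were higher in mouse 10 than in the others. Snap25 had 88861, 76779.7 and 62728 normalized counts, and 15 of the 18 genes were lowest in mouse 10, where 44.2% of all genes kept were.

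Glutamate handling genes were among the best expressed of the transmitter lists, and all 11 were kept. Slc17a7 was highest at 14812 ± 3118 per kilobase and Glul, the astrocyte enzyme that turns glutamate into glutamine, came next at 13914 ± 1857. Their ranges overlapped, because Slc17a7 had 16814, 16402 and 11219 per kilobase and Glul had 13556, 12262 and 15924, so that mouse 10 alone placed Glul first. Slc1a2, the main astrocyte glutamate transporter, followed at 5643 ± 517 per kilobase and Slc1a3, the other astrocyte transporter, at 1799.8 ± 114. Slc17a8, the vesicular transporter of a minority of neurons, was the lowest member at 29.2 ± 2.65 per kilobase. Slc17a6, the vesicular transporter of subcortical neurons, had 414, 401 and 858 normalized counts and was the only member at least 2-fold higher in mouse 10 than in both others. The per-kilobase ratio of Slc17a7 to Slc17a6 was 175 and 177 in mice 1 and 6 and 56.5 in mouse 10.

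All 8 GABA handling genes were kept. Gad1, which makes most of the GABA of cell bodies, stood at 1239 ± 147 per kilobase against 731 ± 72.5 for Gad2, the form enriched at terminals. Their ratio was 1.59, 1.71 and 1.79 in the 3 mice, a narrow range. Slc32a1, which loads GABA into vesicles, had 2181, 1988 and 2806 normalized counts. Slc6a11, an astrocyte GABA transporter, was at 3382, 3212 and 7076 normalized counts and thus more than 2-fold higher in mouse 10 than in both others. Slc6a13, a GABA transporter of meninges and vessels, was lowest at 71.3 ± 22.5 per kilobase.

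Among glycine and D-serine genes 6 of 7 were kept. Srr, the serine racemase that makes the NMDA receptor co-agonist D-serine, led at 661 ± 136 per kilobase with 3528, 3187 and 2328 normalized counts. Slc6a9, a glial glycine transporter, had 824, 805 and 2353 normalized counts and was higher in mouse 10. Dao, which breaks down D-serine, had no read in mice 1 and 6 and a normalized count of 31.9 in mouse 10. Slc6a5, the glycine transporter of glycinergic neurons, lay under the filter with 3.83, 2.90 and 4.39.

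The monoamine oxidase genes, which break down monoamines, were even across the mice, whereas those that make and carry dopamine were far higher in mouse 10 than in the others. Maoa, a monoamine oxidase, had 1179, 1154 and 1191 normalized counts and a CV of 1.61%, and Maob had 837, 786 and 706. In contrast Th, the rate-limiting enzyme of dopamine synthesis, had 39.3, 32.8 and 611 normalized counts. Ddc, which completes dopamine and serotonin, had 110.2, 104 and 1108. Slc18a2, which loads monoamines into vesicles, had 4.79, 7.72 and 812. In mice 1 and 6 these genes were between 2.90 and 110.2 normalized counts, and in mouse 10 Slc6a3 alone exceeded Maoa. Dbh, the enzyme that makes noradrenaline, did not follow them, with 11.5, 10.6 and 13.2 normalized counts. Slc6a2, the noradrenaline transporter, stayed under the filter at 0.960, 0 and 1.10 and so did Slc6a4, the serotonin transporter, at 0.960, 0.970 and 0. Tph2, the serotonin-making enzyme of neurons, was kept with 33.5, 23.2 and 69.2 normalized counts.

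Acetylcholine was represented mainly by its breakdown. Ache, acetylcholinesterase, stood at 350.1 ± 34.5 per kilobase, which was 90.2% ± 2.26 of the summed per-kilobase level of the list (mean ± SD, n = 3). Chat, the enzyme that makes acetylcholine, had 22.0, 8.69 and 6.59 normalized counts. Of the 50 transmitter genes kept, Chat alone was at least 2-fold higher in mouse 1 than in both others. Of all genes kept, 0.156% were. Both other values of Chat were under the filter, so it was kept through mouse 1 alone and the comparison supports nothing further. Hnmt, which inactivates histamine, had 845, 853 and 579.8 normalized counts, whereas Hdc, which makes it, had 12.4, 4.83 and 40.6. Nos1, the neuronal nitric oxide synthase found in a subset of interneurons, had 1222, 1199.6 and 1363 normalized counts, with Nos3, the endothelial form, at 251, 284 and 262 and Nos2, the inducible form, at 15.3, 13.5 and 34.0. Of the endocannabinoid enzymes 0 of 6 differed 2-fold between any mice, which is near the 12% of all genes kept that did. Mgll, which degrades 2-arachidonoylglycerol, led them at 1827 ± 325 per kilobase and Dagla, which makes it, followed at 694 ± 41.8.

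Neuropeptide precursors were dominated by 3 genes that mark cortical interneurons, of which Cck is also made by pyramidal neurons. Of 30 precursors listed, 22 were kept. Cck, cholecystokinin, was highest at 10724 ± 2443 per kilobase, followed by Sst, somatostatin, at 6509 ± 479 and Npy, neuropeptide Y, at 2994 ± 47.3. Their mean shares of the summed per-kilobase level of the list were 43.8% ± 5.20 for Cck, 27.2% ± 5.14 for Sst and 12.4% ± 1.29 for Npy. The order Cck, Sst, Npy was the same in each mouse, and the ranges of neighbours did not overlap, since Cck had 11015, 13008 and 8148 per kilobase, Sst had 6168, 6303 and 7056 and Npy had 3033, 3008 and 2941. Npy varied little, with a CV of 1.58%.

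Among the other precursors, 4 were at least 2-fold lower in mouse 10 than in both others, where 2.34% of all genes kept were. Vip, a marker of a class of interneurons, had 1482, 1591 and 608 normalized counts, and Adcyap1, the precursor of the peptide PACAP, had 1128, 1107 and 354. Both had close values in mice 1 and 6. Tac2 had 195, 218 and 96.6 and Grp, gastrin-releasing peptide, had 186, 190.1 and 78.0. In the other direction stood 3 precursors that were under 10 in mice 1 and 6, namely Pmch, the melanin-concentrating hormone of the lateral hypothalamus, with 9.58, 5.79 and 198, Nts, neurotensin, with 3.83, 1.93 and 105, and Calca with 4.79, 5.79 and 32.9. Penk, proenkephalin, had 1359, 1329.9 and 916 normalized counts, Pdyn, prodynorphin, had 852, 965 and 518, and Tac1, the substance P precursor, had 342, 377 and 296. The 8 precursors under the filter included Oxt, oxytocin, with 1.92, 0 and 2.20, Avp, vasopressin, with 0.960, 1.93 and 0, Gal, galanin, with 0.960, 0.970 and 4.39, and Hcrt, hypocretin, with 0, 2.90 and 17.6. The 7 granins and related genes, which act in dense-core vesicles, were all kept and all in the upper part of the transcriptome, with a median at the 97.9th percentile per kilobase. Pcsk1n led them at 5785 ± 1093 per kilobase and Scg2, secretogranin II, was lowest at 2154 ± 302.

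Of 148 receptor genes listed, 118 were kept and 30 lay under the filter. Gria2, the AMPA receptor subunit that limits calcium entry, was the highest of them at 3555 ± 333 per kilobase with 26392, 25708 and 22084 normalized counts, and it made up 49.2% ± 2.94 of the summed AMPA subunits. Gria1 followed at 2073 ± 496 per kilobase, and its normalized counts of 11369, 10288 and 15933 were highest in mouse 10, whereas Gria3 at 12359.9, 11123 and 6324 and Gria4 at 4198, 3827 and 2790.4 were lowest there. The per-kilobase ratio of Gria2 to Gria1 was 2.02 and 2.17 in mice 1 and 6 and 1.20 in mouse 10.

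Grin1, the subunit that all NMDA receptors contain, stood at 1769 ± 233 per kilobase and held 62.9% ± 3.09 of the summed NMDA subunits. Grin2a, Grin2c and Grin2b, the glutamate-binding subunits that set receptor kinetics, followed at 326 ± 103, 285 ± 1.43 and 285 ± 109 per kilobase. The ranges of these 3 overlapped, since Grin2a had 440.1, 299 and 239 per kilobase, Grin2b had 402, 265 and 187 and Grin2c had 287, 284 and 285. Grin2c, which is made largely by astrocytes in cortex, had a CV of 0.501%, whereas Grin2b spread 2.15-fold. The ratio of Grin2a to Grin2b was above 1 in each mouse, at 1.10, 1.13 and 1.28. Grin3b lay under the filter with 2.87, 11.6 and 14.3 normalized counts.

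Grik5, a high-affinity kainate receptor subunit, made up 64.8% ± 2.78 of the kainate and delta list at 1867 ± 101 per kilobase, far above Grid1, a delta receptor that organizes synapses, at 286 ± 42.4. Metabotropic glutamate receptors were more even. Grm5, a receptor coupled to phospholipase C, was at 758 ± 127 per kilobase, Grm2, a presynaptic inhibitory receptor, at 709 ± 319 and Grm3, its close relative on neurons and astrocytes, at 633 ± 216. Grm3 had 861, 607 and 430.5 per kilobase and was lowest in mouse 10. Grm2 had 2845, 3079 and 1138 normalized counts and Grm8 had 805, 705 and 282, both at least 2-fold lower in mouse 10 than in both others, and the ranges of the 3 leading members overlapped. Grm6, the receptor of retinal bipolar cells, was under the filter at 0.960, 2.90 and 0.

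GABA-A receptor subunits were kept for 15 of 19 genes. Gabra3, an alpha subunit, stood at 1307 ± 578 per kilobase. It had 6859.6, 5966 and 2561 normalized counts and was lower in mouse 10, and Gabra5, an alpha subunit abundant in hippocampus, had 2202, 2033 and 3702 and was higher there. Gabrd, of extrasynaptic receptors, had 2144, 1859 and 1242. Gabrr2, a rho subunit of the retina, spread most in the family, with 0.960, 5.79 and 49.4 normalized counts. Gabbr1 and Gabbr2, the obligate partners of the GABA-B receptor, had 3162, 3005 and 2602 per kilobase for Gabbr1 and 2342, 1881 and 1219 for Gabbr2, and Gabbr1 was higher in each mouse by a ratio of 1.35, 1.60 and 2.14. Glrb, the glycine receptor beta subunit, made up 94.3% ± 0.470 of its family, at 2266 ± 272 per kilobase, and Glra1, the alpha subunit of spinal cord and brainstem, had 6.71, 9.65 and 50.5 normalized counts.

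Dopamine receptors were low. Drd1 was highest by mean, at 60.2 ± 7.43 per kilobase and the 30.2nd percentile of genes kept. Drd5, the other receptor that raises cAMP, had 105, 112 and 184 normalized counts. Drd2, which lowers cAMP and is also the autoreceptor of dopamine neurons, had 27.8, 22.2 and 221. Per kilobase Drd2 was below Drd1 in mice 1 and 6 and above it in mouse 10. The per-kilobase ratio of Drd1 to Drd2 was 6.15 and 7.0 in mice 1 and 6 and 0.604 in mouse 10. Drd4 had 8.62, 15.4 and 7.69 normalized counts, and Drd3 lay under the filter at 0, 0 and 1.10. None of the 7 trace amine receptors was kept. Taar1 had 0 reads in each of the 3 libraries, which allows up to 3 reads in a library, or 2.87, 2.90 and 3.29 normalized counts, where floors of this kind cover counting error only.

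Serotonin receptors were kept for 11 of 14 genes, and none of the 10 pairs of neighbours in their order had separate ranges. Htr2a, the receptor through which many hallucinogens act on pyramidal neurons, was highest by mean at 277 ± 188 per kilobase, yet its normalized counts of 1239, 1042 and 190.0 were more than 5-fold lower in mouse 10 than in both other mice. Htr1a, an inhibitory receptor of pyramidal neurons, had 828, 686 and 598 normalized counts, Htr2c had 824, 843 and 1043 and Htr5a had 824, 693 and 448. The ratio of Htr2a to Htr1a was 2.24 and 2.27 per kilobase in mice 1 and 6 and 0.474 in mouse 10. Htr4 went the other way, at 18.2, 12.6 and 177 normalized counts. Htr3a, an ion channel of interneurons, had 208, 210.4 and 154, and Htr3b had 0 reads in each library.

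Adrenergic receptors were led by Adra1d at 608 ± 68.5 per kilobase and Adrb1 at 414 ± 83.5, which activate different G proteins. Adra1b came next with 1009.6, 919 and 370.1 normalized counts and was lower in mouse 10. Adra2a, the target of guanfacine in prefrontal cortex, had 328, 337 and 385, and Adra2b lay under the filter at 1.92, 2.90 and 3.29. Among nicotinic subunits Chrnb2 and Chrna4, which form the main high-affinity receptor of the brain, were the highest at 311 ± 12.9 and 229 ± 20.4 per kilobase, ahead of Chrna7 at 80.4 ± 13.1. Their CVs were 4.14%, 8.93% and 16.3%. Chrna6, a subunit of midbrain dopamine neurons, had 8.62, 1.93 and 197 normalized counts. Muscarinic receptors had the order Chrm1, Chrm3, Chrm4 and Chrm2, at 1024 ± 141, 623 ± 119.9, 291 ± 33.1 and 57.7 ± 8.38 per kilobase. In that order no neighbours overlapped and each mouse gave the same order.

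Opioid receptors had no overlap between neighbours either. Oprl1, the nociceptin receptor, was at 361 ± 46.7 per kilobase, Oprd1, the delta receptor, had 176, 149 and 81.9, Oprk1, the kappa receptor, was at 17.5 ± 3.07 and Oprm1, the mu receptor, at 3.71 ± 0.756. Oprm1 had 37.4, 27.0 and 26.4 normalized counts. Cnr1, the cannabinoid receptor of nerve terminals, had 6559, 6711 and 4172, and Cnr2, that of immune cells, was under the filter at 1.92, 6.76 and 4.39. Adora1, an inhibitory adenosine receptor, took 92.0% ± 1.23 of its family and Hrh3, the histamine receptor of nerve terminals, took 87.1% ± 1.56. Hrh3 had 4020.3, 4730.0 and 2081 normalized counts and was lowest in mouse 10. Among peptide receptors Ntsr2, a neurotensin receptor of astrocytes, led in each mouse with 1178, 1244 and 2093 per kilobase. Adcyap1r1, the PACAP receptor, had 778, 782 and 818 per kilobase and Cckbr, the brain cholecystokinin receptor, had 849, 825 and 379.5, so that Cckbr was the higher of them in mice 1 and 6 and Adcyap1r1 in mouse 10. Npy2r had 96.8, 91.7 and 855 normalized counts and Vipr2, a VIP receptor, had 16.3, 19.3 and 28.6.

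**Figure D2:**
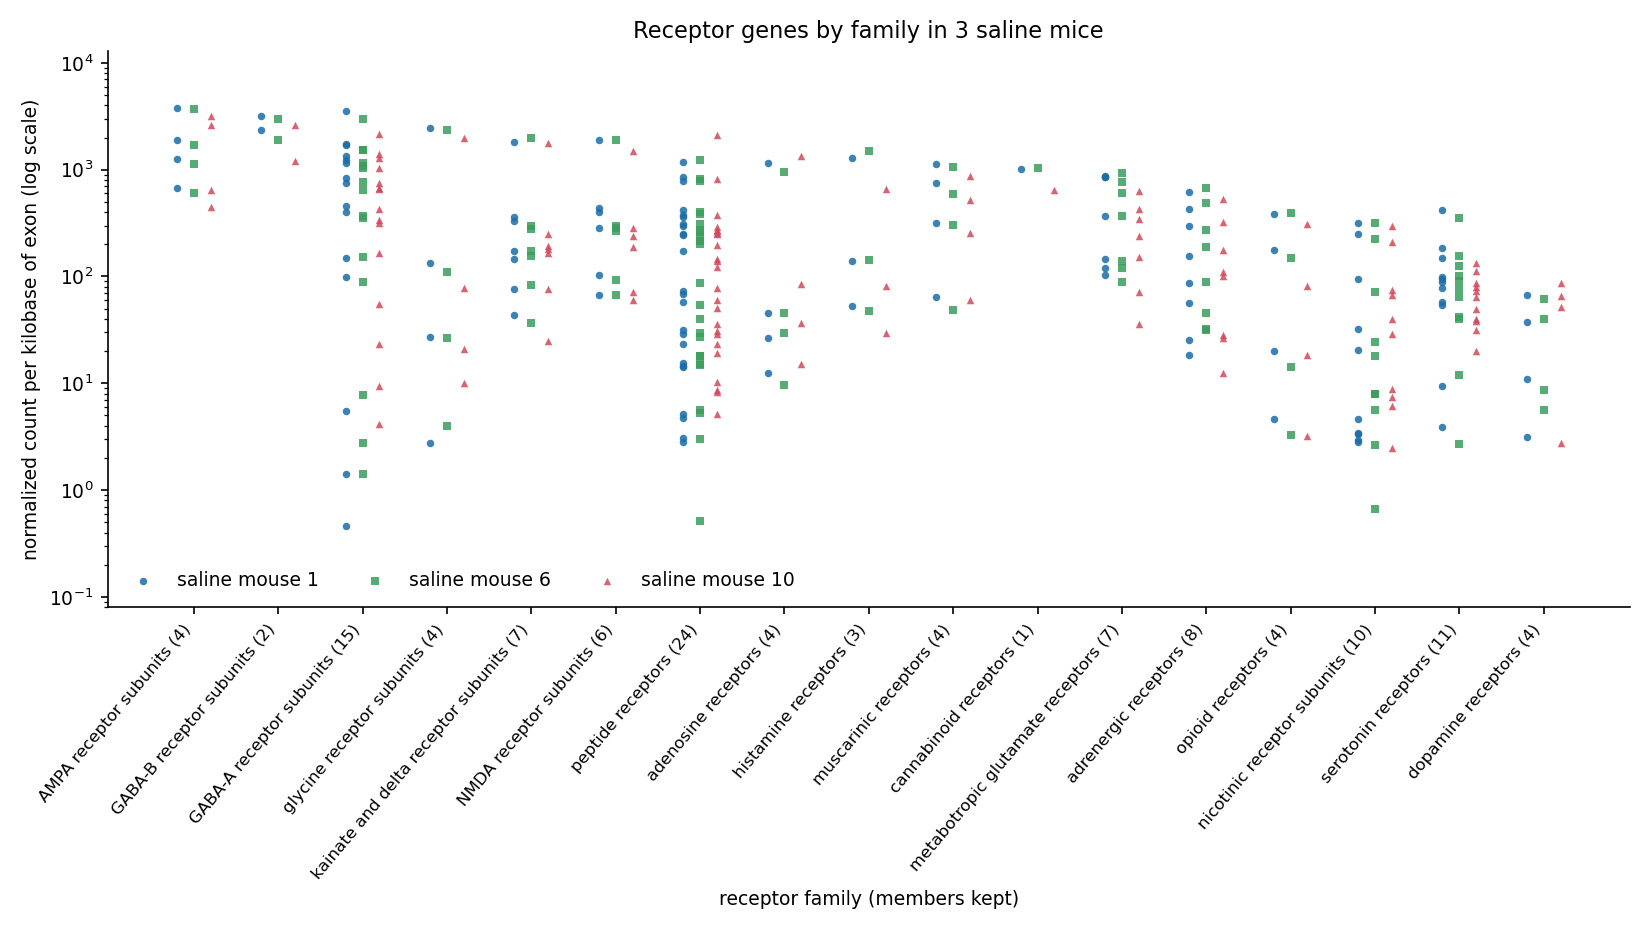
Normalized counts per kilobase of exon (log scale) of the receptor genes kept, by family, with 1 point for each gene in each saline mouse. Families are ordered by their highest member, from Gria2 at 3555 to Drd1 at 60.2 per kilobase by mean, values of 0 are not drawn, and the highest serotonin receptor value of mouse 10 (triangles) lies below those of mice 1 and 6.

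Across the transmitter, peptide and receptor lists, 169 pairs of neighbours stood next to each other in the order of per-kilobase means. The ranges of the 3 mice overlapped for 97 of them, and 94 had the same order in 3 of 3 mice. No test was made of these orders. In 21 of 26 lists with at least 2 members kept, the same gene led in each mouse. Exceptions were Chgb among granins in mouse 1, Grm2 among metabotropic receptors in mouse 6, and Glul, Drd2 and Htr1a in mouse 10. Length mattered too, since without division by length Slc1a2 led glutamate handling, Chgb the granins, Adcyap1r1 the peptide receptors, and Htr2c the serotonin receptors, and with the longest transcript as the length Glul led glutamate handling.

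Markers of cell types were read from 27 lists. Pan-neuronal markers were high in each, led by Snap25, and their summed normalized counts were 267446, 236089 and 193205, or 0.855, 0.788 and 0.670% of the library. Summed excitatory neuron markers were 233470, 224777 and 182084 normalized counts. Nrgn headed them per kilobase, and Tbr1, a transcription factor of early-born cortical neurons, had 4649.7, 4743 and 2753 normalized counts. Upper-layer markers summed to 33547, 31287 and 17462 normalized counts, with Lamp5 at 7794, 6911 and 3679, Cux2, a transcription factor of upper layers, at 4319, 4233 and 1951 and Otof at 1116, 1323 and 314. All 7 upper-layer markers were lowest in mouse 10, and 3 of them were at least 2-fold below both other mice. Of all genes kept, 44.2% were lowest in mouse 10 and 2.34% were 2-fold below both. Deep-layer markers summed to 14895, 13567 and 12421, with Crym at 2528, 2635 and 2015 and Fezf2, a regulator of subcortical projection neurons, at 1059, 1059.7 and 589.7. Of the 11 kept, 5 were lowest and 4 were highest in mouse 10.

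GABAergic markers had a median CV of 10.5%, and 0 of 8 differed 2-fold between any mice, which is near the 12% of all genes kept that did. Pvalb, the calcium buffer parvalbumin of fast-spiking interneurons, had 1105, 893 and 2261 normalized counts, and Syt2, a release sensor of their terminals, had 1098, 712 and 2687. Of 8 parvalbumin interneuron markers, only these 2 were at least 2-fold higher in mouse 10 than in both others, where 4.17% of all genes kept were. Among the 8, 5 were highest and 2 were lowest in mouse 10. Kcnc2, a potassium channel of the same cells, had 3657, 3569 and 3594. Sst had 3695, 3775 and 4227 and was highest in mouse 10, whereas the SST interneuron list summed to 13583, 13094 and 9763 normalized counts. That sum includes Calb1, which upper layers also make and which was lower in mouse 10. Of the 6 members, 3 were lowest and 2 highest in mouse 10, where 44.2% and 39.2% of all genes kept were. The ratio of Pvalb to Vip per kilobase was 1.09, 0.823 and 5.45, and that of Sst to Pvalb was 5.81, 7.35 and 3.25.

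Microglial markers had a median CV of 8.13% and 0 of 10 members 2-fold apart between any mice, which is near the 12% of all genes kept that were. Of the 10, 8 were highest in mouse 10, where 39.2% of all genes kept were. Aif1 was lowest at 148, 146 and 157 normalized counts. Endothelial markers had 0 of 8 members 2-fold apart, near the same 12%, with Cldn5, a tight junction protein, at 779, 922 and 956. Rgs5, of pericytes, had 3555, 3573 and 3604 normalized counts. Astrocyte markers were led by Aldoc at 6558 ± 1005 per kilobase and 7 of 9 were highest in mouse 10, where 39.2% of all genes kept were. Slc1a3 was lowest there, at 16449, 15088 and 14556 normalized counts. Aqp4, a water channel, had 3431, 2588 and 5709 and Gfap, the filament protein of white matter and reactive astrocytes, had 2209, 1996 and 10462. Oligodendrocyte markers had a median CV of 115%. Mbp, myelin basic protein, had 22353, 16581 and 152192 normalized counts. The 9 markers together took 0.193, 0.158 and 1.40% of the library. Among precursor markers Pdgfra was even at 1531, 1479 and 1765, whereas Olig1, a transcription factor of the whole lineage, had 1942, 1812 and 5150.3.

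**Figure D3:**
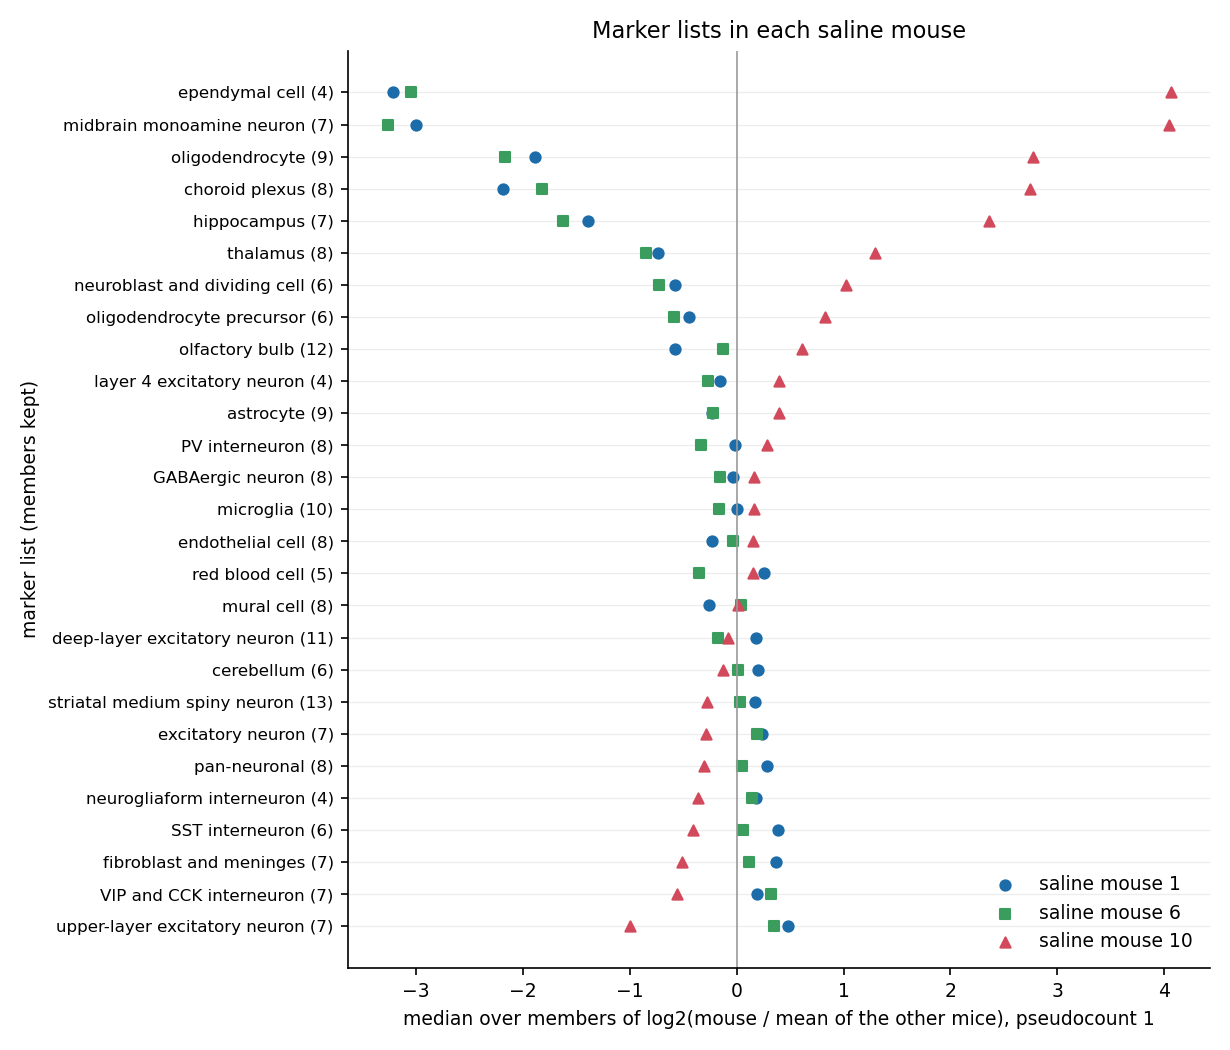
Median over the members of each marker list of log2(mouse / mean of the other mice), with a pseudocount of 1 added to normalized counts, for each saline mouse. Mice 1 and 6 lie close together for most lists, and mouse 10 runs from its lowest value for upper-layer markers to 4.06 for ependymal markers.

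Several genes of the hippocampus, thalamus, midbrain, choroid plexus and ependyma were higher in mouse 10. The striatal list was mixed, with summed normalized counts of 10267, 9846 and 8004. Of its 13 members kept, 8 were lowest in mouse 10, where 44.2% of all genes kept were. Another 4 were highest there, and 2 of these were at least 2-fold above both others, where 4.17% of all genes kept were. Prox1, a transcription factor of dentate granule cells, had 372, 279 and 1675 normalized counts, Dsp, a desmosomal protein of the dentate gyrus, had 4.79, 2.90 and 701 and Lct had 112, 70.5 and 805. Of 8 thalamic markers, 5 were at least 2-fold higher in mouse 10 than in both others, where 4.17% of all genes kept were. In contrast 2 of the 8 were highest in mouse 1. Tcf7l2 and Prkcd, which are among the 5, had 111, 105 and 346 and 267, 243 and 732. En1, a midbrain transcription factor, had 0.960, 0 and 82.4. Ttr, the thyroid hormone carrier made by choroid plexus, had 2.87, 116 and 2421 normalized counts and so differed between mice 1 and 6 as well, Otx2 had 0, 0.970 and 60.4, and Foxj1, the regulator of motile cilia in ependyma, had 48.9, 48.3 and 337. Kcnj13 and Aqp1, which choroid plexus also makes, did not follow, with 37.4, 32.8 and 26.4 and 15.3, 17.4 and 17.6. Wfs1 was the one hippocampal marker that was not higher in mouse 10, at 3708, 3849 and 3139.6. For Slc6a3, Dsp, Otx2 and En1 the values in mice 1 and 6 were at most 4.79 normalized counts, so these genes were kept through mouse 10 alone. In all, 259 genes kept had a mean under 10 in mice 1 and 6, and 160 of these were at least 2-fold higher in mouse 10 than in both others.

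Spread among the mice was measured in 3 ways, and each depended on mouse 10. The median CV over the genes kept was 12.9% for the 3 mice and 6.52% for mice 1 and 6, where counting of reads alone would give a median of 4.19%. The common biological coefficient of variation, which is the spread beyond counting estimated by edgeR, was 23.0% with the 3 mice, 7.75% without mouse 10, and 26.2% and 27.3% without mouse 1 or mouse 6. A fold rule found 1930 genes with at least 2-fold between the highest and the lowest mouse, which is 12% of the genes kept. Without mouse 10 the count was 341. Across genes, log2 normalized counts of mice 1 and 6 had a Pearson correlation of 0.992 and a median absolute difference of 0.13, against 0.968 and 0.29 for mice 1 and 10 and 0.969 and 0.24 for mice 6 and 10. These correlations describe 16035 genes that are not independent. Spread fell with abundance, from a median CV of 31.9% for means of 10 to under 30 to 9.00% for means of 1000 to under 3000, and it was 13.1% for means of at least 10000. The share of genes with a 2-fold spread fell too, from 40.2% to 4.36% between those first 2 classes. The 12% over all genes kept is thus a high baseline for lists of abundant genes.

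Each mouse was also set against both others by the 2-fold rule, with 1 library a mouse and therefore no test. Mouse 10 was above both for 668 genes (4.17%) and below both for 376 (2.34%). Mouse 6 was above for 63 (0.393%) and below for 52 (0.324%), and mouse 1 was above for 25 (0.156%) and below for 141 (0.879%). Mouse 10 was the one farthest from the other 2 for 9246 genes (57.7%). Among genes with at least 10 normalized counts in every mouse, mouse 10 was above for 474 and below for 281, so the counts stayed unequal away from the filter.

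**Figure D4:**
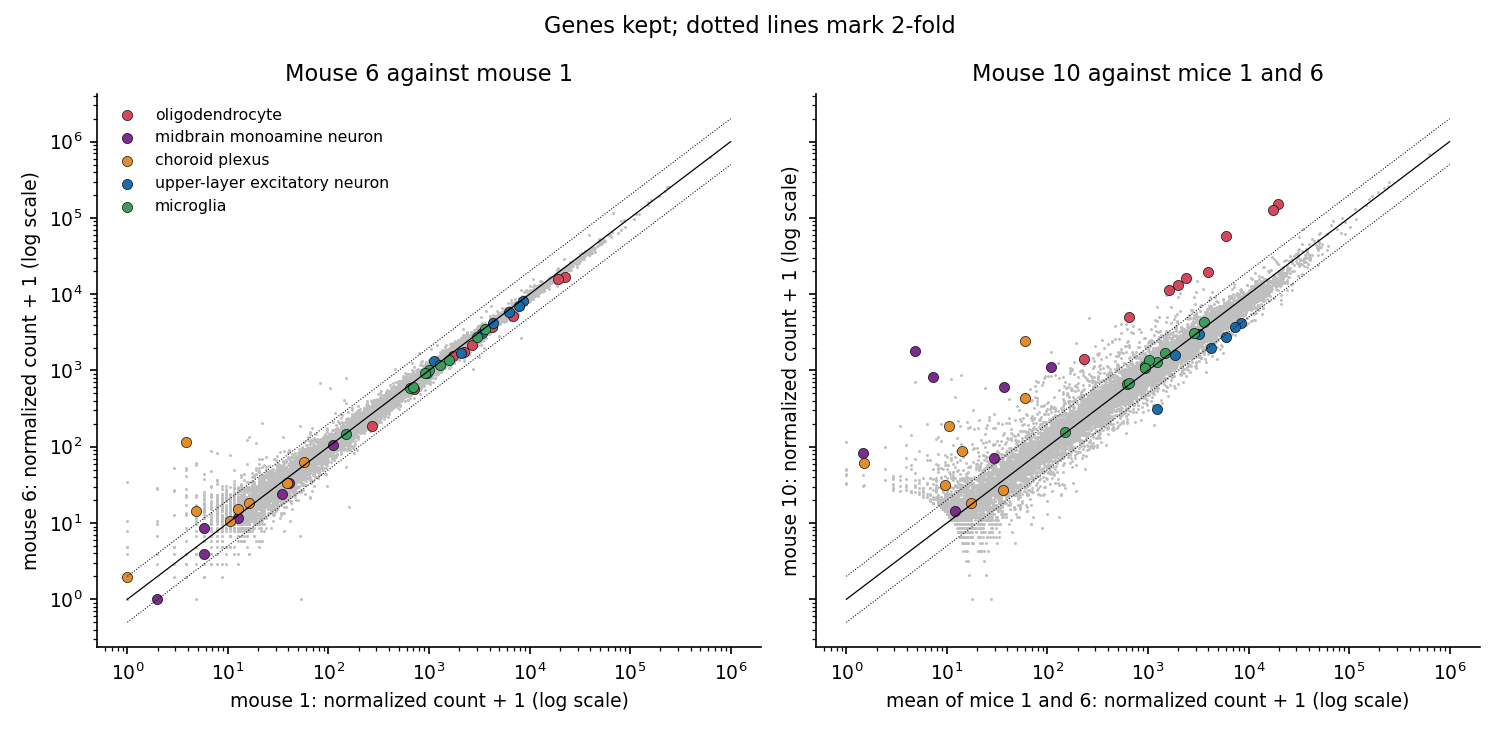
Normalized count + 1 (both axes on log scale) of each gene kept in mouse 6 against mouse 1 (left) and in mouse 10 against the mean of mice 1 and 6 (right), with 5 marker lists coloured, the line of equality solid and 2-fold dotted. All 9 oligodendrocyte markers and 6 of 7 midbrain markers lie above the 2-fold line in mouse 10, while microglial markers stay within 2-fold in both panels.

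The largest spread among genes with a mean of at least 100 was that of Ttr at 626-fold, followed by Slc6a3 at 467-fold and Dsp at 179.9-fold, on the scale of normalized count + 1. The lowest values of these genes are near 0, so the folds have little precision. Further down came Dlk1 with 10.5, 9.65 and 761 normalized counts, C1ql2, a secreted synapse organizer of dentate mossy fibres, with 14.4, 11.6 and 861, Cabp7 with 284, 228 and 4849 and Agt, angiotensinogen, with 122, 93.6 and 1764. All 15 genes of the largest spread were highest in mouse 10. In the other direction Htr2a had 1239, 1042 and 190.0 normalized counts and Tnfrsf8 had 172, 186 and 32.9.

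Mice 1 and 6 had few genes of their own. Lars2, the mitochondrial leucyl-tRNA synthetase, had 8264, 2694 and 2802 normalized counts and so was about 3-fold higher in mouse 1. mmu-mir-689-2, an entry of 57 bases, had 2754, 1057 and 1087 and moved in the same way. Reads of 100 bases are longer than that entry, so its per-kilobase level of 28643 ± 17039, rank 18 of all genes kept, is not a level of a mature miRNA. Ide, insulin-degrading enzyme, had 3172, 1486 and 1457. In mouse 6 the genes farthest above both others were AF085738 with 102, 588 and 199.9 and Gm14703 with 81.4, 687 and 257, and the contractile genes Tagln and Acta2 of arterial smooth muscle had 133, 269 and 139 and 149, 371 and 247 normalized counts.

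Immediate-early genes, which neurons switch on within minutes of activity, differed among all 3 mice. All 20 listed were kept, 12 of them spread at least 2-fold against 12% of all genes kept, and 16 were lowest in mouse 1 against 27.8% of all genes kept. The summed normalized counts of the list were 23250.3, 31289 and 38014, and the median log2 ratio of a mouse to the mean of the other 2 was -1.10, -0.05 and 0.84. Fos, a subunit of the AP-1 transcription factor, had 141, 409 and 752 normalized counts. Npas4, a transcription factor specific to neuronal activity, had 149, 798 and 734. Egr2 had 34.5, 133 and 228. Arc, a regulator of AMPA receptor trafficking, had 803, 1671 and 6824 and was at least 2-fold above both others in mouse 10. In mouse 1 these 4 genes were at least 2-fold below both other mice, which is 4 of 20 against 0.879% of all genes kept.

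Members of the list differed in pattern. Egr1 was the highest member by mean at 1945 ± 522 per kilobase, though Arc was above it in mouse 10. Egr1 spread 1.68-fold with 4163, 7007 and 6918 normalized counts. Nr4a1, a nuclear receptor, had 1046, 1924 and 2913, Junb had 683, 1260.4 and 2001 and Dusp1, a phosphatase of MAP kinases, had 378, 555 and 1054. Homer1 was the one member at least 2-fold lower in mouse 10 than in both others, with 6636, 7063 and 3225. Nr4a2, which is also a transcription factor of midbrain dopamine neurons, had 209, 159 and 889.5 and was high in mouse 10 alone. Bdnf, brain-derived neurotrophic factor, was even at 994, 1002 and 1090.5, a CV of 5.20%, and Fosl2 was even too at 549.8, 592 and 636. The time of dissection of each mouse is not given in the sources used here.

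Promoters are shown for the 4 immediate-early genes with the largest fold spread among those with 1 entry in the RefSeq promoters used here. Arc and Egr2 spread more but are not shown, since Arc had no entry and Egr2, which spread 6.47-fold, had 5. The promoters used here covered 16 of the 20 genes. Each run holds 250 bases before to 50 after the start, 5′ to 3′ on the strand of the gene, in build GRCm38.p6, which is not the build of the counts. Capitals mark matches on either strand to the half-site of the cAMP response element, spelled TGACG. They also mark matches to a TATA motif, spelled TATAA. In Btg2 both half-sites overlap each other.
Nr4a2 (chr2:57123954-57124253, minus strand): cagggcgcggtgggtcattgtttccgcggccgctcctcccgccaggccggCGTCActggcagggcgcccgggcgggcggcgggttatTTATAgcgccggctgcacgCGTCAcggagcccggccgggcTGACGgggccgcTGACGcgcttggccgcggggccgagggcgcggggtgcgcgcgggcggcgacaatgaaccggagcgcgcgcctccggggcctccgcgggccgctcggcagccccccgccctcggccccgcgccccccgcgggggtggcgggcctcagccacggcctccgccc
Npas4 (chr19:4989922-4990221, minus strand): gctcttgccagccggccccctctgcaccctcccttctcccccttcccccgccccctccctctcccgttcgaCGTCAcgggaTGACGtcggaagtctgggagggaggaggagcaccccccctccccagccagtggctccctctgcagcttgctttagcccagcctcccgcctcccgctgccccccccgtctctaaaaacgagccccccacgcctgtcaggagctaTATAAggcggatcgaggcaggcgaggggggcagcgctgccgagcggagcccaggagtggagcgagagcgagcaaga
Fos (chr12:85473640-85473939, plus strand): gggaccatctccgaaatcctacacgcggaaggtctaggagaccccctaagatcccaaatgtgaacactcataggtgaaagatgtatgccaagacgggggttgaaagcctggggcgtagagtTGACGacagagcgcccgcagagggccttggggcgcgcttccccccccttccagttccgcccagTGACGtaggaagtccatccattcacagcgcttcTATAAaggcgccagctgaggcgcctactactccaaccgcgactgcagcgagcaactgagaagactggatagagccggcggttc
Btg2 (chr1:134079106-134079405, minus strand): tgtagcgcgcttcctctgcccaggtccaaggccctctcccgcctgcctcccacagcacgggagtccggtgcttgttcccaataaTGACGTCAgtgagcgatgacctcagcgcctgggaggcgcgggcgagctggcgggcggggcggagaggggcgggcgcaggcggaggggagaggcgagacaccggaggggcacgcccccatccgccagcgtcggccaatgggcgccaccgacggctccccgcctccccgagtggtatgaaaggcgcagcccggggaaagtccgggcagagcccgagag

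In the Fos promoter TATAA began 33 bases and the nearer TGACG 66 bases before the start, and in that of Npas4 TATAA began 26 bases and the nearer TGACG 169 bases before it. TGACG was found in 15 of 27 promoters of the list, which is 55.6%, against 20.8% of all 32851 promoters of that length and 28.9% of those of the genes kept. TATAA was found in 7 of 27, or 25.9%, against 24.9% of all promoters and 14.0% of those of the genes kept. Of the 27 promoters, 7 belong to Bdnf and 5 to Egr2, so these genes weigh more in the promoter shares. By gene, TATAA was found in 7 of 16, or 43.75%, against 27.99% of all genes with a promoter and 16.5% of those kept. By gene, TGACG was found in 13 of 16, or 81.25%, against 23.05% and 33.6%. A gene with several promoters has more chances of a match, and no test was made of these shares. A match is a run of letters and does not show that a factor binds it.

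**Figure D5:**
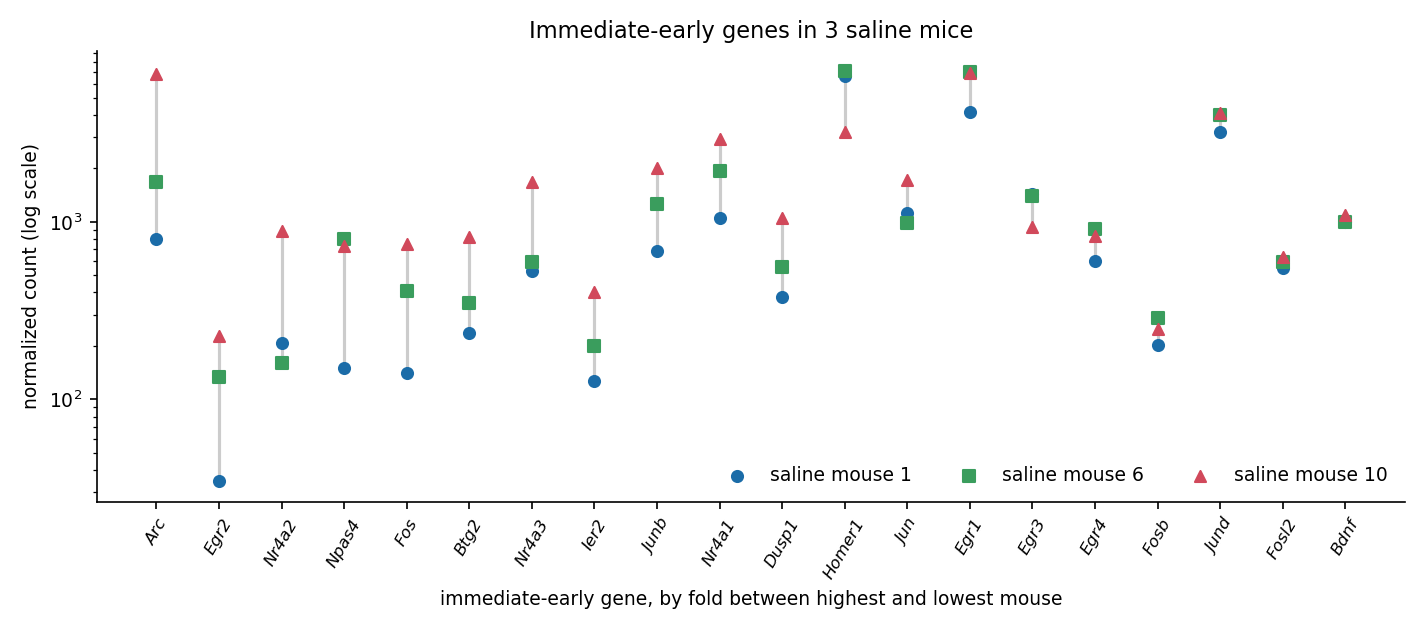
Normalized counts (log scale) of the 20 immediate-early genes in each saline mouse, ordered by the fold between the highest and the lowest mouse, with a grey bar joining the lowest and highest values. Mouse 1 is lowest for 16 genes, and the bars shorten to nearly nothing for Fosl2 and Bdnf.

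At the other end, some genes were almost equal in the 3 mice. Among genes with a mean of at least 100, S100pbp had 1164, 1168 and 1165 normalized counts, Polr1c had 571, 572 and 573 and Dner, a Notch ligand of neurons, had 4160.2, 4141 and 4153. A CV of 0.171% for S100pbp lies under the spread that counting alone gives at that level, and genes were picked here for their small CV. Housekeeping genes as a list had a median CV of 8.50% and took 0.573, 0.568 and 0.565% of the library. Of the 15, 0 differed 2-fold, where 12% of all genes kept did. Among genes with means of 1000 to under 3000 it was 4.36%, so a count of 0 is near the share for abundant genes. Gapdh, of glycolysis, had 40234, 37118 and 33927 normalized counts and Tbp, a general transcription factor, had 729.9, 753 and 848. Mapk3, a MAP kinase, was also even at 3409, 3514 and 3419.6, while Rasgrp2, an activator of Rap proteins, had 345, 405 and 529.

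Genes on both sides of the filter had like values. Just inside it were Ms4a7 with 13.4, 6.76 and 9.88 normalized counts and Gm15608 with 12.4, 7.72 and 9.88, and just outside it were Spo11 with 7.66, 13.5 and 8.79 and Ephx3 with 9.58, 11.6 and 8.79. A further 1151 genes had a mean of at least 5 and under 10. In all, 6890 genes had a read in a saline mouse but a mean under 10, and 14695 had no read in any of the 3.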

How the data were processed

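Gene expression in the prelimbic cortex was measured by paired-end sequencing of 100 base reads, with 1 library per mouse. Per the labels and the methods, the authors aligned reads to mm9 with TopHat2 2.0.11, counted them per gene with HTSeq and normalized the counts with DESeq2. The deposited signal values are those normalized counts, rounded to 2 decimals. The annotation and strand setting are not given in the sources used here, so genes that overlap on either strand are uncertain. Samples were grouped by their labels, and only the 3 saline libraries were used.

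Every deposited value was a whole multiple of 1 step per library (100% whole after rounding), and the whole reads recovered in this way, 32643726, 31056058 and 26273436 in mice 1, 6 and 10, gave the depth. Genes with a mean normalized count of at least 10 were kept. Levels per kilobase used the union of exons of the mm9 annotation of GENCODE. Symbols were taken by gene identifier. Folds were computed after adding 1. The common biological coefficient of variation was estimated by edgeR 4.0.16 in R 4.3.3 on recovered reads with TMM scaling. The other values were computed with Python 3.11.15, pandas 2.3.3 and numpy 2.4.6. There is 1 group, so no test was made, and the spread is that between 3 mice of 1 library each, in which biological and technical parts cannot be told apart.

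Genes were named by a rule. It took the 20 highest by count and per kilobase, the 3 highest, the lowest, the most variable and the under-filter members of each list, the 15 genes with the largest spread and the 10 with the smallest CV among those with a mean of at least 100, the 5 farthest above and below for each mouse, the 3 nearest on each side of the filter, and genes the study names. Other list members, the ratios and the family shares were chosen after their values were seen. The members and lists were chosen with earlier results of these data known. Alternatives were another pseudocount, scaling, filter or gene length, and leaving out each mouse. Scaling alternatives were size factors from the saline libraries alone, DESeq2 1.42.0 size factors and division by library total. Some genes that the rule names are not reported here.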

Additional observations from a re-analysis of the deposited data

How the results depend on the processing

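The number of genes kept and the number of lists led by the same gene stayed within 1.5 times of the reported value under each alternative run, and scaling by library total or by the saline libraries alone moved no count by more than that. The library of mouse 10 decided the spread. Leaving out 1 mouse gave a median CV of 6.52% to 14.1%, a common biological coefficient of variation of 7.75% to 27.3%, and 341 to 1521 genes with a 2-fold spread, and the lowest value was in each case that without mouse 10. With 1 mouse left out, and so only 1 other to compare with, mouse 1 was above for 100 to 587 and below for 241 to 934 genes, mouse 6 above for 241 to 532 and below for 100 to 861, and mouse 10 above for 861 to 934 and below for 532 to 587.

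The filter came next. With a mean of at least 100, 768 genes had a 2-fold spread, mouse 1 was above both others for 3 genes and below for 11, mouse 6 for 2 and 0, and mouse 10 for 325 and 183. With no filter the median CV was 20.2% and these counts were 6090, then 309 and 656, 587 and 361, and 1884 and 726. A pseudocount of 5 gave 16 and 70 genes for mouse 1 and 38 and 12 for mouse 6. The 10 leading genes took 3.09% of counts without mitochondrial genes and 20.4% per kilobase. Of 114 levels of named genes recomputed under other scaling, 10 moved by more than 1 SD, and these were the 10 genes named for the smallest CV, whose SD is small. No paired analysis was possible because only 1 group was analysed, and the groups share no replicate numbers. Depth limits statements on genes with few reads, since 3 reads were 2.87, 2.90 and 3.29 normalized counts.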

Other observations

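Clock genes, whose RNA levels cycle over the day, were measured for 18 members and all were kept. Npas2 was at the 2-fold limit and the other 17 spread less, where 12% of all genes kept spread 2-fold. Npas2 had 1385, 1249 and 691 normalized counts. Cry1 had 549.8, 601 and 571, Per1 had 2393, 3157 and 2653 and Dbp, an output gene of the clock, had 3546, 4060.2 and 3819. The median CV of the list was 13.5%, against 12.9% over all genes kept.

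Long noncoding RNAs of the nucleus were abundant. Meg3 had 67447, 115823 and 87186 normalized counts and was the highest of the list by counts, while Malat1, of nuclear speckles, had 23000.3, 21154 and 22574. Neat1, the scaffold of paraspeckles, had 1109, 1431 and 3241 and was at least 2-fold higher in mouse 10 than in both others. Meg3 lies in an imprinted cluster with Rian and Mirg, which had 18794, 20678 and 18667 and 372, 518 and 536.

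Stress and hypoxia genes were all kept, and 3 of 12 spread at least 2-fold, where 12% of all genes kept did. Sgk1, a kinase induced by glucocorticoids and also made by oligodendrocytes, had 1447, 1601 and 3246 normalized counts. Fkbp5, which is induced by glucocorticoids in neurons, had 692, 775 and 1139, and Cdkn1a, a cell cycle inhibitor, had 497, 573 and 267. Hspa1a and Hspa1b, near-identical copies whose reads cannot be assigned with certainty, had 179, 217 and 216 and 193, 218 and 253. All 8 mural cell markers were lowest in mouse 1, where 27.8% of all genes kept were, and Acta2 had 149, 371 and 247 normalized counts.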
